A study of Mus musculus with 2 samples.

Results

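The CC chemokine ligands are small secreted proteins that share a pair of neighbouring cysteines and guide leukocytes along concentration gradients by binding G protein-coupled receptors. The set described here holds 10 genes that were chosen by name from the 32285 genes of the count matrices: Ccl2, Ccl3, Ccl4, Ccl5, Ccl6, Ccl7, Ccl8, Ccl9, Ccl12 and Ccl24. All 10 had UMIs (unique molecular identifiers, each standing for 1 captured RNA molecule) in both libraries. In an infarcted heart such ligands are known to draw in monocytes, neutrophils and lymphocytes. Resident macrophages of the heart, which lack the receptor CCR2, are a known source of several of them, whereas macrophages derived from blood monocytes carry CCR2. The genes were described over CCR2- and CCR2+ macrophages, monocytes, neutrophils, dendritic cells and lymphocytes, and between genotypes.

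The study asked, with single-cell RNA sequencing, how loss of the hyaluronan receptor LYVE-1 altered the immune cells of the injured neonatal heart. One library came from WT hearts and one from Lyve1 KO hearts, a line in which Lyve1 is lost in all cells and not in macrophages alone. Each library pooled 5 hearts, infarcted at postnatal day 2 and collected at an age of 9 days, 7 days after the infarction (P2MI7dpi), and each held live CD45+ 7-AAD- cells collected by flow cytometric sorting. The study's methods name C57BL/6 or CD1, where indicated, as strains of WT mice. Neither the paper nor the labels name the strain of either library. Both libraries are of injured hearts. The study assigned cells to single hearts by sequence variants and tested cell abundance, but that assignment was not used here. With 1 library per genotype there was thus no replicate, so no test was run and no p-value is given. Intervals are exact 95% Poisson intervals on UMI counts, or exact binomial (Clopper-Pearson) intervals on shares of cells, and they cover counting error only. Cells and genes are not replicates, and a genotype cannot be told apart from its pool, its sort or its library.

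After removal of barcodes of low quality and of probable doublets, 4187 WT and 3391 Lyve1 KO cells remained, with a median of 11104 and 12909 UMIs per cell. Mitochondrial UMIs exceeded the limit of 30% in 601 of 5713 WT and 874 of 5285 Lyve1 KO barcodes. The libraries shared 9 barcodes, of which 3 were kept in each. Lyve1 was at 248 CPM (counts per 1000000 UMIs) in the WT library and at 13.2 CPM in the Lyve1 KO library, with 15783 and 760 UMIs. This difference over all kept cells has the direction of the labels. The deleted part of Lyve1 is not given in the sources used here. Among the classes named below, Lyve1 was lower in Lyve1 KO in CCR2- macrophages, at 539 and 21.7 CPM. In CCR2+ macrophages it was at 41.2 and 21.2 CPM, with UMIs in 11 of 233 and 63 of 224 cells. Unnamed cells had 80.6 and 22.4 CPM. All other named classes had more in Lyve1 KO, such as T cells (0.638 and 8.32 CPM, 3 and 48 UMIs). The source of these UMIs was not tested.

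Clusters were named from marker lists, and each class name below stands for cells that were like that type by their markers. The CCR2- macrophage class held 1082 WT and 474 Lyve1 KO cells, which was 25.8% and 14.0% of the kept cells. The CCR2+ macrophage class held 233 and 224 cells, the monocyte class 479 and 539 and the neutrophil class 350 and 334. In the CCR2+ class 35 and 33 cells were in a cluster led by Cd209a, H2-Ab1 and H2-Eb1. Its 10 leading genes held 4 of the CCR2+ macrophage list and also Cd209a and Ccr7 of the dendritic cell list. The name is thus uncertain for these cells. There were 61 and 40 dendritic cells, 91 and 144 cells of the NK cell and ILC class, 346 and 391 T cells and 427 and 493 B cells. Ccr2 itself was at 41.8 and 55.6 CPM in the CCR2- class against 577 and 678 CPM in the CCR2+ class. In the NK cell and ILC class the type 2 ILC marker Il1rl1 was near 0 and the CD8 gene Cd8b1 was among the leading genes. UMIs of a CD3 gene, which marks T cells, were in 77 of 91 and 137 of 144 of its cells, which goes against the name for most of them, and the name is kept below as that of the marker list only. A further 1088 WT and 737 Lyve1 KO cells were in clusters left unnamed, and the median in these cells was 1542 and 1077 UMIs. Among them, a cluster led by Areg, Il5 and Csf2 (47 and 55 cells) had Il1rl1 among its leading genes. Unnamed clusters of low depth that were nearest to the macrophage list held 324, 286 and 220 WT and 401, 119 and 39 Lyve1 KO cells. None of these cells are counted in the classes above. A mast cell and basophil class of 30 and 15 cells was kept apart because of its size, and orders of classes below cover the other 8. Ligand genes, receptor genes and Lyve1 were not used as features for the clusters. A difference in the level of a gene within a class may come from more producing cells or from more RNA in each of them, and shares of cells are therefore given beside the levels.

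The loci of 9 of the 10 genes lie on mouse chromosome 11 (GRCm38, GENCODE annotation), and all 10 are annotated as protein coding. The first group follows the plus strand: Ccl2 at chr11:82035571-82037453, Ccl7 at chr11:82045712-82047525, Ccl12 at chr11:82101845-82103400 and Ccl8 at chr11:82115185-82116799. The second group holds Ccl5 at chr11:83525778-83530518, Ccl9 at chr11:83572919-83578636, Ccl6 at chr11:83587882-83593087 and Ccl3 at chr11:83647844-83649355 on the minus strand. It ends with Ccl4 at chr11:83662584-83664683 on the plus strand. Ccl24 lies apart, at chr5:135569937-135573049 on the minus strand.

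Promoter windows are shown for Ccl12 and Ccl8, because these neighbours were both highest in the CCR2- class and yet differed in opposite directions between the libraries there (values follow). The windows are the 250 bases before the RefSeq start of each gene (GRCm38.p6, plus strand), at chr11:82101595-82101844 and chr11:82114935-82115184. Capitals mark the runs of at least 8 bases that both windows share in the same order, the last of which holds a TATA box.
Ccl12: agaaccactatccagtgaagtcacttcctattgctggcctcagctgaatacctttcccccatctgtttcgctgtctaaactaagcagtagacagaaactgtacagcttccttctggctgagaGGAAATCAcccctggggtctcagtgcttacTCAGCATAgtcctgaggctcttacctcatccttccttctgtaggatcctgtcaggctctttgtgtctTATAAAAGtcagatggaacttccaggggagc
Ccl8: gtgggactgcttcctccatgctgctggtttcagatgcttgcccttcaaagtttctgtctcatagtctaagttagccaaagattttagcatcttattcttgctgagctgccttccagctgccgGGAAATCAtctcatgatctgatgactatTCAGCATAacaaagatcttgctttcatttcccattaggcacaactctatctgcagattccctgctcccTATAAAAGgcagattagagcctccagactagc

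RefSeq windows were at hand for 5 of the 10 genes (Ccl12, Ccl8, Ccl9, Ccl6 and Ccl3). In a global alignment the Ccl12 and Ccl8 windows had the same base in 150 of 270 columns (55.6%), the highest identity among the 10 pairs of windows, which ranged from 43.7%. The letters TATAAA, searched on both strands, were in the windows of Ccl12, Ccl8 and Ccl9 and in 12.3% of 32536 promoter windows of the same length. GAGGAA, the core that PU.1 binds, was in the windows of Ccl12, Ccl8 and Ccl3 and in 23.4% of all windows. TGANTCA (AP-1) was in the window of Ccl9 alone among the 5 and in 6.73% of all windows, and GAAANNGAA (IRF) in that of Ccl3 alone and in 7.15%. TTGCNNAA (C/EBP) was in none of the 5 windows and in 9.57% of all. These matches describe letters and not sites.

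To ask which immune cells carried each ligand, summed UMIs were expressed as CPM of the UMIs of the same class. All 10 genes together made up 4666 CPM in WT and 5382 CPM in Lyve1 KO CCR2- macrophages and 3829 and 3260 CPM in neutrophils. They were at 3258 and 3915 CPM in CCR2+ macrophages, at 2851 and 2433 CPM in the NK cell and ILC class and at 2117 and 2028 CPM in monocytes. Dendritic cells had 1863 and 856 CPM, T cells 48.0 and 80.9 CPM and B cells 11.3 and 27.7 CPM. The T and B cell classes thus had the lowest sums of the 8 classes. The class with the highest level was the same in both libraries for 9 of the 10 genes, and the exception was Ccl3. The ligands fell into groups by that class, which are taken in turn.

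**Figure D1:**
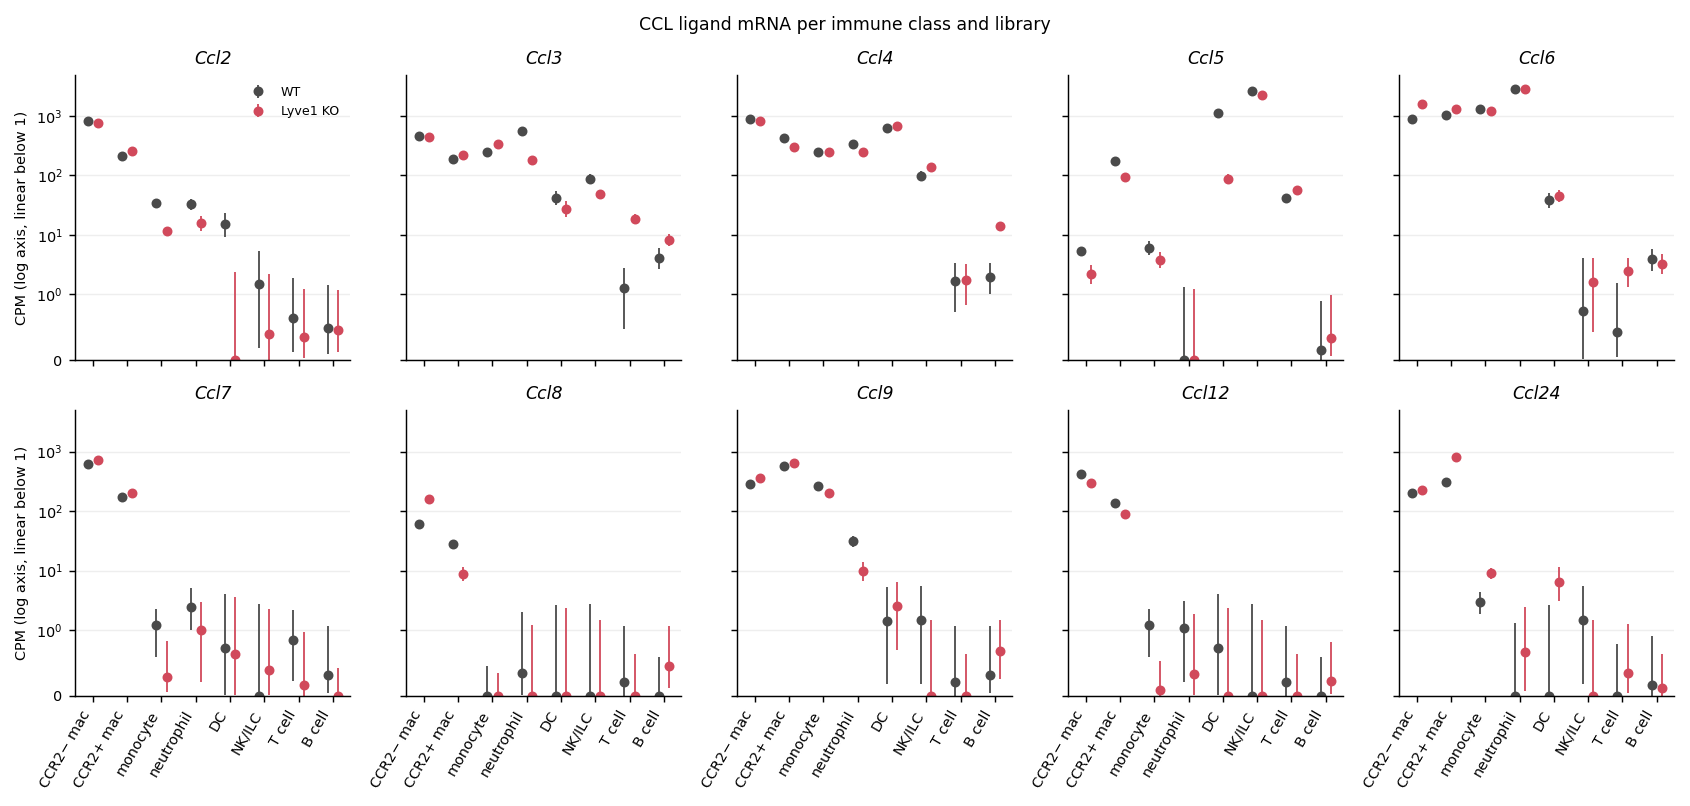
Level of each of the 10 ligands (CPM, log axis) in 8 named classes of the WT and the Lyve1 KO library, each point being 1 library and each bar its 95% Poisson interval. Ccl2, Ccl7, Ccl12 and Ccl8 were highest in CCR2- macrophages, Ccl9 and Ccl24 in CCR2+ macrophages and Ccl6 in neutrophils. Ccl5 was highest in the NK cell and ILC class, most cells of which had UMIs of a CD3 gene.

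Ccl2, Ccl7 and Ccl12 are ligands of CCR2, the receptor by which monocytes leave the bone marrow and enter tissue. All 3 genes were highest in CCR2- macrophages, followed by CCR2+ macrophages, and none of them exceeded 34.2 CPM in another of the 8 classes. Ccl2 was at 814 CPM in WT (803 to 825) and 760 CPM in Lyve1 KO (746 to 775) CCR2- macrophages and at 213 and 254 CPM in CCR2+ macrophages. Ccl7 was at 619 (610 to 628) and 714 (700 to 727) CPM in the former and at 171 and 202 CPM in the latter. Ccl12 was at 421 (413 to 428) and 298 (289 to 307) CPM in the former and at 139 and 88.7 CPM in the latter. The level in CCR2- macrophages was 3.82 times that in CCR2+ macrophages for Ccl2 in WT and 2.99 times in Lyve1 KO, 3.61 and 3.53 times for Ccl7, and 3.03 and 3.36 times for Ccl12. The CCR2- class held 90.2% and 83.2% of all Ccl2 UMIs, 90.7% and 86.1% of the Ccl7 UMIs and 90.7% and 84.6% of the Ccl12 UMIs. Most RNA of these ligands was thus in cells with little Ccr2 of their own.

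Within the CCR2- macrophages the 3 genes did not follow each other exactly. Ccl2 and Ccl7 were both highest in the cluster led by Ccl8, Lyve1 and Folr2 (185 WT and 126 Lyve1 KO cells), the type of resident macrophage that carries LYVE-1. Ccl2 reached 1698 and 1558 CPM there and Ccl7 1592 and 1586 CPM, with UMIs of Ccl2 in 168 of 185 and 118 of 126 cells. This cluster also had more cardiomyocyte RNA than its class, with the 8 genes of the cardiomyocyte list at 269 and 185 CPM against 117 and 88.5 CPM, and the part of that RNA in the ligand levels was not tested. Ccl12 was instead highest in the cluster led by Gdf15, Cd83 and Sdc4 (166 and 73 cells), at 687 and 467 CPM, beside 554 and 380 CPM in the cluster with Lyve1. In the largest cluster, led by Olfml3, Slamf9 and Fcrls (503 and 175 cells), Ccl12 was at 419 and 384 CPM, a difference of 1.09 times that is smaller than in the other clusters named here. The cluster led by Saa3, Prg4 and Marco (63 and 54 cells) was lower for Ccl12, at 142 and 34.7 CPM.

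**Figure D2:**
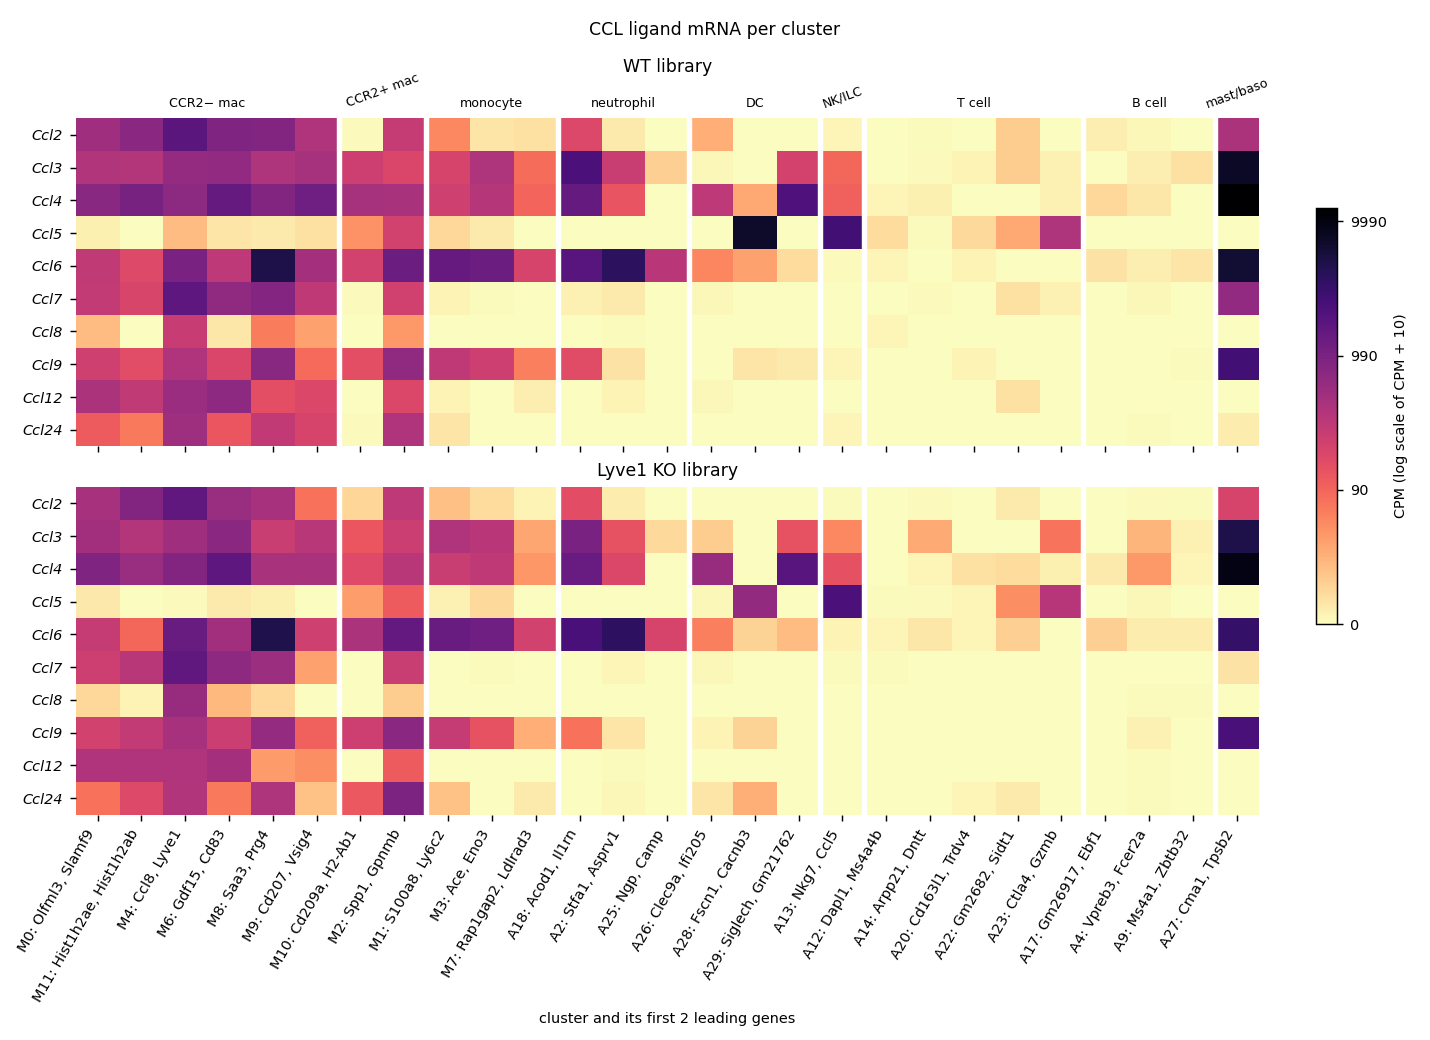
Level of each ligand (log10 of CPM + 10, colour scale) in named clusters of the WT and the Lyve1 KO library, with each cluster given by its leading genes. Small named clusters other than those of dendritic cells are left out. Ccl2, Ccl7 and Ccl8 peaked in the cluster of Ccl8, Lyve1 and Folr2, at 1698, 1592 and 255 CPM in WT, and Ccl12 in the cluster of Gdf15, Cd83 and Sdc4.

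Between the libraries, Ccl2 and Ccl7 differed little in CCR2- macrophages and Ccl12 was lower in Lyve1 KO. The log2 ratio of CPM + 10 in Lyve1 KO over WT was -0.10 for Ccl2, 0.20 for Ccl7 and -0.49 for Ccl12. Ccl12 was 1.41 times (1.36 to 1.46) higher in WT in the CCR2- class and 1.57 times (1.41 to 1.74) higher in the CCR2+ class. The direction in the CCR2+ class depended on the clustering: without regression of the cell cycle scores Ccl12 was at 69.8 and 94.5 CPM there, a log2 ratio of 0.39. UMIs of Ccl12 were in 729 of 1082 WT and 266 of 474 Lyve1 KO CCR2- macrophages, and after each cell was thinned to 2000 UMIs in 30.8% and 26.5%. Over all kept cells the Ccl12 level was 206 and 88.5 CPM, a log2 ratio of -1.13. Of the 10 ligands it alone passed the fold over all kept cells, by which is meant a log2 ratio whose size is 1 or more on at least 100 UMIs over both libraries, and 0.397% of 13849 measured genes did. With the classes of the Lyve1 KO library held at the WT shares of UMIs, Ccl12 came to 143 CPM and a log2 ratio of -0.49. The same step moved Ccl2 from 230 to 369 CPM, beside 400 CPM in WT, and Ccl7 from 208 to 340 CPM, beside 303 CPM in WT. At the WT shares the Lyve1 KO level of Ccl2 lay closer to WT, that of Ccl7 lay above WT and that of Ccl12 stayed lower. The step reset the shares of all classes at once, unnamed cells and the mast cell and basophil class included. The part of the CCR2- macrophage share alone was not tested. For Ccl24, Ccl8 and Ccl6 the same step widened the difference, to log2 ratios of 0.50, 1.06 and 0.43. It turned the direction of Ccl5, from 0.17 to -0.61 (66.3 CPM beside 107 CPM in WT), and of Ccl9, from -0.10 to 0.16. For Ccl5 the step took in dendritic cells, at 1134 and 88.9 CPM, where 1 cell held 46.1% and 57.1% of the UMIs. It also took in CCR2+ macrophages, where 1 cell held 44.0% and 79.2%. The part of these few cells in the turn of Ccl5 was not tested.

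In monocytes Ccl2 was far lower, at 34.2 CPM in WT (30.3 to 38.4) and 11.6 CPM in Lyve1 KO (9.58 to 13.8). The log2 ratio was -1.04, and Ccl2 was the 1 of 6 ligands measured in monocytes that passed the fold, beside 0.224% of 8910 genes. These UMIs came from 40 of 479 and 38 of 539 cells, and 4 WT and 5 Lyve1 KO cells held 50% of them. Ccl2 in monocytes was thus in few cells in both libraries.

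Ccl8, a ligand of CCR8 in the mouse, was the scarcest of the 10 over all kept cells, at 29.9 and 42.3 CPM, and the most concentrated, with 50% of its UMIs in 7 WT and 3 Lyve1 KO cells. In CCR2- macrophages it was at 60.9 CPM in WT (58.0 to 63.8) and 162 CPM in Lyve1 KO (156 to 169), with UMIs in 120 of 1082 and 75 of 474 cells. The single highest cell held 18.3% and 26.6% of these UMIs. The cluster with Lyve1 and Folr2 had 1267 of the 1714 WT and 2260 of the 2351 Lyve1 KO UMIs, at 255 and 585 CPM. In CCR2+ macrophages Ccl8 went the other way, at 28.3 CPM in 12 of 233 WT cells and 8.83 CPM in 6 of 224 Lyve1 KO cells. The log2 ratio was 1.28 in the CCR2- class and -1.02 in the CCR2+ class. Without the 5 highest cells of each class and library, Ccl8 in CCR2- macrophages was at 31.8 and 36.0 CPM, and the log2 ratio was 0.14. The 5 cells were taken from 1082 WT and 474 Lyve1 KO cells. The size of the difference in level thus rested on a few cells. The share of cells with a UMI was also higher in Lyve1 KO, at 2.68% and 5.73% in WT and Lyve1 KO after thinning. Within the cluster with Lyve1 and Folr2 the shares before thinning lay closer, at 39.5% (73 of 185 cells) and 42.9% (54 of 126 cells). That cluster made up 185 of 1082 WT and 126 of 474 Lyve1 KO cells of the class. Its part in the higher class share was not tested.

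Of the 10 ligands measured in CCR2- macrophages, Ccl8 alone passed the fold, beside 0.509% of 11005 genes measured there. In CCR2+ macrophages 2 of 10 passed, Ccl8 and Ccl24, beside 0.537% of 8562 genes. With so few members these counts are given as descriptions.

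Ccl24 is known as an eotaxin, a ligand of CCR3, and is linked to alternatively activated macrophages. It was highest in CCR2+ macrophages, at 311 CPM in WT (297 to 325) and 801 CPM in Lyve1 KO (780 to 822), a log2 ratio of 1.34. UMIs were in 71 of 233 and 90 of 224 cells, and after thinning in 15.9% and 22.6%. The gene was carried by the cluster led by Spp1, Gpnmb and AA467197 (198 and 191 cells), at 386 and 945 CPM. In CCR2- macrophages Ccl24 was at 205 and 226 CPM. The cluster with Lyve1 had 520 and 373 CPM there, and that led by Saa3, Prg4 and Marco had 279 and 396 CPM. In WT the level was thus highest in the cluster of Lyve1 and Folr2, and in Lyve1 KO in that of Spp1 and Gpnmb. The CCR2- class held 73.0% of the Ccl24 UMIs in WT and 35.7% in Lyve1 KO, and the CCR2+ class 24.3% and 62.3%. Markers of the CCR2+ list went both ways in that class. Spp1, the gene of osteopontin, was at 443 and 1940 CPM and Arg1, of arginase, at 928 and 1899 CPM. Ccr2, Fn1 and Tgfbi were also higher in Lyve1 KO. H2-Aa was lower there, at 3508 and 2908 CPM, as were H2-Ab1, H2-Eb1, Cd74 and Il1b. The part of these markers in the Ccl24 difference was not tested. Cells with UMIs of Y-linked genes had 446 and 1137 CPM of Ccl24 in this class, and cells with Xist had 84.2 and 161 CPM. The level differed more between these cells than between the libraries, in the same direction in each. The pools held cells of both kinds (1034 with Xist and 1989 with Y-linked UMIs in WT, 983 and 1435 in Lyve1 KO), and the cells of single hearts were not separated here.

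Ccl9 and Ccl6 are ligands of CCR1 known from rodents. Ccl9 was highest in CCR2+ macrophages, at 567 CPM in WT (548 to 586) and 643 CPM in Lyve1 KO (624 to 662), before CCR2- macrophages at 288 and 364 CPM and monocytes at 264 and 203 CPM. It was spread over many cells, with UMIs in 199 of 233 and 199 of 224 CCR2+ macrophages, and no cell of this class held more than 6.34% of them. Neutrophils had little Ccl9, 31.4 CPM in 15 WT cells and 9.93 CPM in 17 Lyve1 KO cells, and the log2 ratio there was -1.06 on 89 and 30 UMIs.

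Ccl6 was the most abundant of the 10 over all kept cells, at 840 CPM in WT and 946 CPM in Lyve1 KO. Neutrophils carried it at 2850 (2789 to 2913) and 2801 (2742 to 2862) CPM, and monocytes at 1307 and 1205 CPM. These levels differed by 1.02 times in neutrophils and by 1.08 times in monocytes. After thinning, 82.4% and 84.7% of neutrophils and 79.5% and 74.3% of monocytes had a UMI, beside 0.76% and 1.06% of B cells, which are not a known source and stand here for free RNA. The median depth before thinning was 7661 and 7982 UMIs in neutrophils and 10829 and 13132 in B cells. The neutrophil cluster led by Stfa1, Asprv1 and Csta3 (251 and 264 cells) had 3820 and 3731 CPM. That led by Ngp, Camp and Ltf, genes of granules made in immature neutrophils (22 and 28 cells), had 321 and 191 CPM. Ccl6 therefore differed more between neutrophil clusters than between libraries.

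In macrophages the libraries differed more. Ccl6 was at 903 CPM (892 to 914) in WT and 1568 CPM (1548 to 1589) in Lyve1 KO CCR2- macrophages, a log2 ratio of 0.79. The cluster led by Saa3, Prg4 and Marco, of which Prg4 and Marco are known from cavity macrophages, had 4931 and 4777 CPM, and it made up 63 of 1082 WT and 54 of 474 Lyve1 KO cells of the class. It held 14898 of the 25440 WT and 15397 of the 22740 Lyve1 KO UMIs of Ccl6 in the class. In the cluster with Lyve1, Ccl6 was at 977 and 1338 CPM. The direction differed between cells with Xist, which had 1162 and 729 CPM, and cells with Y-linked UMIs, which had 778 and 2059 CPM. Ccl7 behaved alike in this class, with 874 and 553 CPM in cells with Xist and 507 and 834 CPM in cells with Y-linked UMIs, and so did Ccl2, with 1199 and 704 against 641 and 822 CPM. The small differences of Ccl2 and Ccl7 between the pooled libraries thus joined larger ones of opposite direction. That of Ccl6 was found in cells with Y-linked UMIs and was reversed in cells with Xist. The pooled hearts were not separated here, so in these cells sex cannot be told apart from heart. The part of single hearts, and of the cluster led by Saa3, in these differences was not tested.

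**Figure D3:**
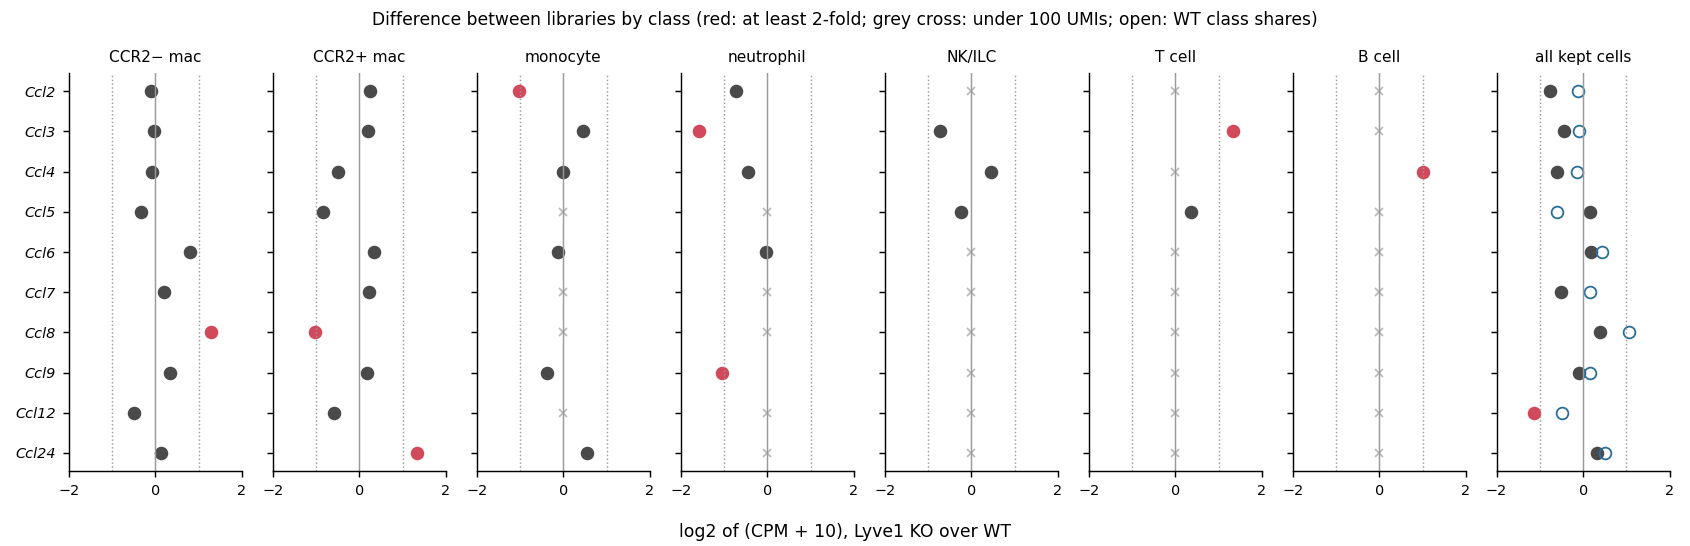
Log2 ratio of CPM + 10 in Lyve1 KO over WT for each ligand with at least 100 UMIs in a class over both libraries. Dotted lines stand at a log2 ratio of 1 in size, and no intervals are drawn. A last panel gives all kept cells, with open symbols for the Lyve1 KO classes held at the WT shares of UMIs. In that panel Ccl12 lies past the lines at -1.13, as does the open symbol of Ccl8 at 1.06. Of 37 pairs of ligand and class, 8 lie past the lines, with Ccl3 in neutrophils at -1.59 the lowest and Ccl24 in CCR2+ macrophages at 1.34 the highest. In the same classes between 0.224% (monocytes) and 1.35% (T cells) of all measured genes passed the fold.

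Ccl3 and Ccl4 are inflammatory chemokines, Ccl3 a ligand of CCR1, and both are known to be induced within hours in activated leukocytes. Ccl4 was highest in CCR2- macrophages, at 889 CPM in WT (878 to 900) and 836 CPM in Lyve1 KO (821 to 851), and Ccl3 was at 460 (453 to 468) and 451 (441 to 462) CPM there. Neither differed between the libraries by more than 1.06 times in this class. Within it, the cluster led by Gdf15, Cd83 and Sdc4 had the highest levels of both genes, at 1444 and 1675 CPM for Ccl4 and 655 and 733 CPM for Ccl3. Dendritic cells also carried Ccl4, at 630 and 686 CPM, with UMIs in 20 of 61 and 16 of 40 cells, of which 1 held 19.7% and 30.2%. Their clusters are given singly, since the cluster led by Clec9a had 3 genes of the CCR2+ macrophage list but 2 of the dendritic cell list among its 10 leading genes and the class was not compared between the libraries. Ccl4 was at 2107 and 1791 CPM in the cluster with Siglech, a marker of plasmacytoid dendritic cells (16 and 11 cells), and at 299 and 585 CPM in that led by Clec9a (23 and 24 cells).

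In neutrophils Ccl3 was the ligand with the widest difference between the libraries. It was at 569 CPM in WT (541 to 597) and 182 CPM in Lyve1 KO (168 to 198), with UMIs in 123 of 350 and 73 of 334 cells and, after thinning, in 24.6% and 14.4%. The log2 ratio was -1.59, which is 3.12 times (2.83 to 3.44) higher in WT. The neutrophil cluster led by Acod1, Il1rn and Csf1, genes of activated myeloid cells, had 2252 and 973 CPM of Ccl3 (77 and 42 cells), and that led by Stfa1, Asprv1 and Csta3 had 246 and 129 CPM. Ccl3 was thus higher in WT in both clusters, and the cluster led by Acod1 made up 77 of 350 WT and 42 of 334 Lyve1 KO neutrophils. Ccl4 followed less far, at 342 and 249 CPM in neutrophils and 1443 and 1379 CPM in the cluster led by Acod1. Its direction turned in neutrophils with Xist, at 17.5 and 281 CPM on 121 UMIs, whereas those with Y-linked UMIs had 516 and 282 CPM. Of 5 ligands measured in neutrophils, 2 passed the fold (Ccl3 and Ccl9, both lower in Lyve1 KO), beside 0.927% of 4748 genes. Among neutrophils with Xist the Ccl3 levels were 270 and 218 CPM, and among those with Y-linked UMIs 626 and 185 CPM, so most of the difference lay in the latter, although neutrophils with Xist had just 167 UMIs of Ccl3. In monocytes Ccl3 was at 247 and 344 CPM and Ccl4 at 253 and 252 CPM, both from a minority of the cells (170 of 479 and 197 of 539 with Ccl3).

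Immediate early genes such as Fos, Jun and Egr1 rise when tissue is digested. The list of 13 genes also held the heat shock genes Hspa1a and Hspa1b. Its genes summed to between 4172 and 16464 CPM over the 8 named classes of both libraries. In neutrophils and CCR2- macrophages their part in the levels of Ccl3 and Ccl4 was not tested.

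Ccl5, a chemokine that cytotoxic lymphocytes are known to store, had a pattern of its own. The NK cell and ILC class had 2661 CPM in WT (2574 to 2750) and 2244 CPM in Lyve1 KO (2186 to 2303), with UMIs in 60 of 91 and 91 of 144 cells. In a split of the class chosen after its values were seen, cells with UMIs of a CD3 gene had 2228 and 2295 CPM of Ccl5, and the 14 and 7 cells without one had 7017 and 936 CPM. This class held 52.6% and 80.8% of all Ccl5 UMIs. None of the 3 ligands measured in it (Ccl3, Ccl4 and Ccl5) passed the fold, beside 0.625% of 5281 genes. The T cell class, kept apart from those cells with a CD3 gene, had 42.5 and 57.5 CPM. Its cluster led by Ctla4, Gzmb and Ikzf2, with Foxp3 (33 and 49 cells), had 388 and 344 CPM. With stricter cell limits the NK cell and ILC class held 38 and 48 cells. A cluster led by Sidt1, Cd8b1 and Gm2682 (82 and 131 cells) was then named T cell. No UMI of Ccl5 was found in neutrophils of either library, which at their depth allows up to 1.06 and 0.993 CPM (3 counts).

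In dendritic cells nearly all Ccl5 was in the cluster led by Fscn1, Cacnb3 and Il4i1, genes of migratory dendritic cells. It was at 7036 CPM in 22 WT cells and at 641 CPM in 5 Lyve1 KO cells, with UMIs in 18 and 4 of them. A single cell held 46.1% and 57.6% of these UMIs, and the median depth of the cluster was 3482 UMIs in WT and 45853 in Lyve1 KO. The groups of this cluster were too small and too unlike in depth to be compared. Ccl5 in CCR2+ macrophages likewise came from few cells, at 175 and 93.7 CPM, with 44.0% and 79.2% of the UMIs in 1 cell.

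Lymphocytes had few ligands apart from Ccl5. In T cells Ccl3 was at 1.28 and 18.4 CPM, from 6 and 106 UMIs, and 5 Lyve1 KO cells carried all of the latter. Of the 2 ligands measured in T cells Ccl3 passed the fold, at a log2 ratio of 1.33, beside 1.35% of 8585 genes. In B cells Ccl4 was the only ligand measured, at 1.94 and 13.9 CPM, and it passed at 1.004, beside 0.676% of 9027 genes. One Lyve1 KO cell held 82.1% of these Ccl4 UMIs. These ratios rest on 1 or a few cells.

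**Figure D4:**
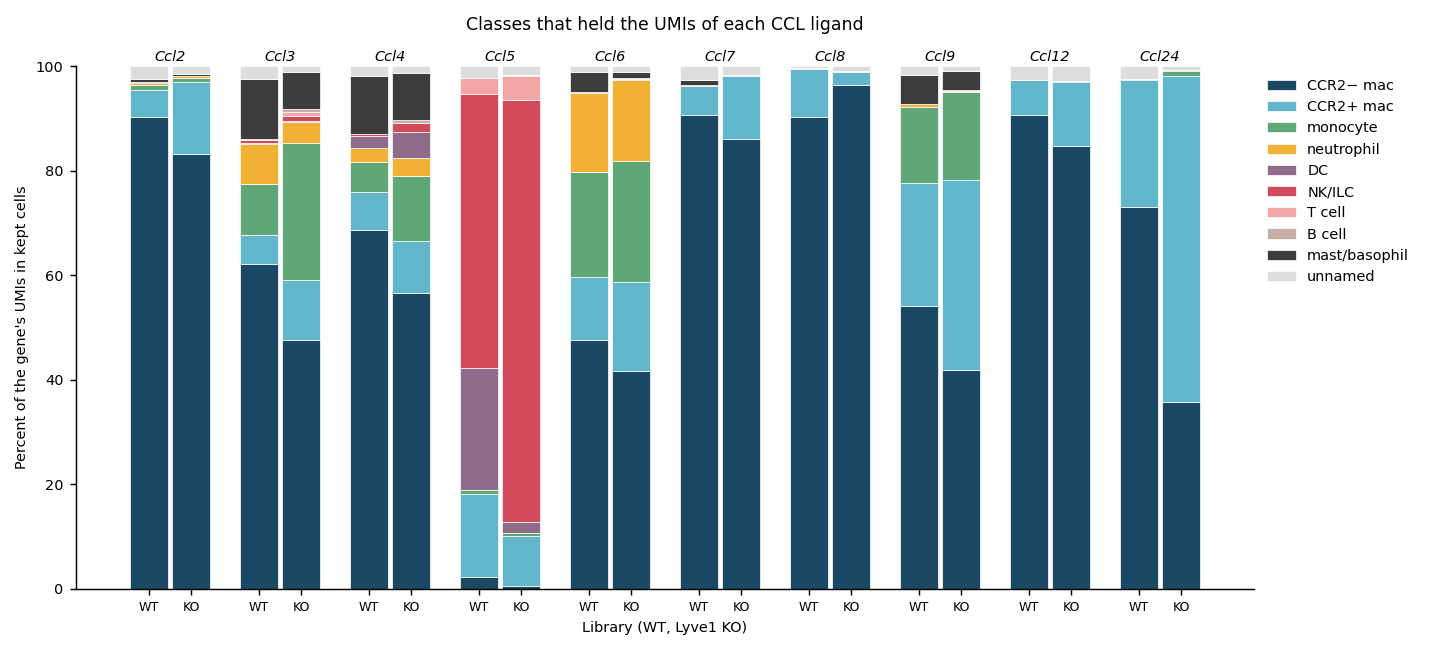
Share of all UMIs of each ligand (percent) carried by each class in the WT and the Lyve1 KO library. CCR2- macrophages held between 83.2% and 96.4% of Ccl2, Ccl7, Ccl12 and Ccl8 in both libraries. The class given the name NK cell and ILC held 52.6% and 80.8% of Ccl5. Most of its cells (77 of 91 and 137 of 144) had UMIs of a CD3 gene, which marks T cells.

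Single CCR2- macrophages carried some ligands together. After thinning to 2000 UMIs, 22.7% of WT and 23.6% of Lyve1 KO cells had both Ccl2 and Ccl7, where the product of the single shares was 12.5% and 13.6%. Both Ccl3 and Ccl4 were in 18.7% and 20.8% of cells, against products of 10.3% and 12.0%. Both Ccl6 and Ccl9 were in 18.1% and 21.2%, against 11.01% and 14.4%. Ccl6 and Ccl12 were the opposite case, in 8.97% and 9.13% of cells against 10.6% and 11.2%. Among the clusters, Ccl6 peaked in that of Saa3 and Prg4, where Ccl12 was low. In neutrophils Ccl3 and Ccl4 were found together 2.46 and 4.74 times as often as the product of their shares. These values rest on 29 of 346 WT and 15 of 320 Lyve1 KO neutrophils with both. Both genes were higher in the neutrophil cluster led by Acod1, and its part in this was not tested.

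To place each ligand among all genes, its level (log2 of CPM + 10) was correlated over 42 points, the clusters of at least 50 cells in WT (22) and Lyve1 KO (20), among 9377 genes. The points share 2 libraries and many clusters, and the values are descriptions. Ccl7 was most like Cbr2, Folr2 and Pf4 (r = 0.977, 0.976 and 0.972), which mark resident macrophages, and Ccl12 was most like Pf4, Ccnd1 and Gatm. Ccl2 was closest to Mt1, Ccl7 and C3ar1, and Ccl8 to Cd209f, Cp and Cela1. Ccl3 and Ccl4 were each other's nearest gene (r = 0.962), followed by Fcgr3 and Cd14 for both. Ccl6 was nearest to Alox5ap, Ifitm2 and Ifitm3, Ccl9 to Lamp1, Wfdc17 and Cd68, and Ccl24 to C1qb, C1qa and Mt1. Ccl5 was nearest to Gzmb, Klrd1 and Nkg7 (r = 0.838, 0.834 and 0.817) and was correlated with no other ligand above 0.137.

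Receptors of these ligands were measured in the same cells, and those described here reached 50 CPM in a named class, apart from Ccr3. Ccr1, a receptor of Ccl3, Ccl6 and Ccl9, was highest in neutrophils at 850 and 740 CPM. Ccr2 was highest in monocytes at 815 and 767 CPM. Cx3cr1, whose ligand is not a CC chemokine, was highest in CCR2- macrophages at 736 and 590 CPM. Ccrl2, which binds chemerin and does not signal, was highest in neutrophils at 730 and 335 CPM. Ccr7 was found in dendritic cells at 768 and 535 CPM and in B cells at 737 and 650 CPM, Ccr9 in dendritic cells at 252 and 136 CPM and Ccr6 in B cells at 59.3 and 54.8 CPM. Ccr3, the receptor of Ccl24, did not exceed 6.71 CPM in any named class.

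Of the 10 other CC ligands on the list, 2 reached 50 CPM in a named class, both of them ligands of CCR4. Ccl22 was at 656 CPM in WT (11 of 22 cells) and 1024 CPM in Lyve1 KO (4 of 5 cells) in the dendritic cell cluster led by Fscn1. Ccl17 was at 13.4 CPM in that cluster in WT (3 UMIs in 1 of 22 cells) and at 558 CPM in Lyve1 KO (3 of 5 cells). In the cluster led by Clec9a no UMI of Ccl17 was found in WT, which allows up to 3.42 CPM (3 counts), and in Lyve1 KO it was at 670 CPM, where 1 cell held all 752 UMIs. CCR2+ macrophages carried both ligands as well. Ccl22 was at 55.9 CPM there in WT, where 1 cell held 343 of 346 UMIs, and at 14.3 CPM in Lyve1 KO. Ccl17 was at 38.1 CPM in WT (236 UMIs in 7 of 233 cells) and at 9.95 CPM in Lyve1 KO (71 UMIs in 6 of 224 cells). Ccl19, Ccl21a and Ccl27a have several identifiers under 1 symbol, so that their counts are uncertain, and all were under 7 CPM.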

How the data were processed

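Live CD45+ cells from 2 pools of hearts were profiled with the 10x GEM-X 5′ kit. The authors deposited raw UMI counts per gene and barcode, made with Cell Ranger 8.0.1 on mm10 per the file headers and processing notes (the reporting summary names another version), restricted to barcodes called as cells. UMIs mark 5′ ends, so levels need no length correction. Barcodes with under 500 genes, under 250 UMIs or over 30% mitochondrial UMIs were left out, as in the study's methods. The automatic scrublet threshold (scanpy 1.11.5) marked 1 WT and 4 Lyve1 KO cells, so the highest scores at 0.4% per 1000 barcodes were left out (98 and 73 cells). The authors' assignment of cells to hearts was not used here.

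Log normalization, integration, regression of cell cycle scores and clustering at resolution 0.8 were done in Seurat 5.3.0 (R 4.3.3), with macrophage and monocyte clusters clustered again, and with ligand, receptor, Lyve1 and sex-linked genes kept out of the features. Clusters depended on linear algebra settings, which were fixed, with 1 thread. Clusters were named where 25% of cells or more had each of 3 markers and where the 10 leading genes did not hold more markers of another list. Clusters with a median depth far under the library median and no leading gene of their own list were also left unnamed. The lists of the 2 macrophage subsets were counted only when macrophages and monocytes were clustered again, so the dendritic cell cluster led by Clec9a kept its name. That scoring was set after the data were seen. Levels are summed UMIs per 1000000 UMIs of the same cells (CPM), and log2 ratios used CPM + 10 in classes with at least 100 UMIs of the gene. Scripts ran in Python 3.11.15 with numpy 2.4.6, scipy 1.17.1, pandas 2.3.3, Biopython 1.88 and matplotlib 3.10.9, and were tested on simulated data. The 10 genes, the lists and the rule for named genes (all members, Lyve1, pathway genes at or over 50 CPM, the 3 genes most like each member and the 3 leading genes of clusters) were chosen with earlier results of these data known. One gene of the pathway list is not reported here.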

Additional observations from a re-analysis of the deposited data

Results flagged for a closer look

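Each class name stands for cells like that type by their markers. Ccl3 differed between the libraries in opposite directions in 2 classes, with a log2 ratio of Lyve1 KO over WT of -1.59 in neutrophils and 1.33 in T cells, and the T cell value rests on 6 WT and 106 Lyve1 KO UMIs. Ccl8 did so in macrophages, at 1.28 in the CCR2- class and -1.02 in the CCR2+ class. With 1 library per genotype these differences between classes were not tested.

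The mast cell and basophil class (30 WT and 15 Lyve1 KO cells, led by Cma1, Tpsb2 and Cpa3) is outside the comparisons of the report and had higher levels of Ccl3, Ccl4, Ccl6 and Ccl9 than any of the 8 classes compared, in both libraries. Its WT and Lyve1 KO levels of Ccl3 were 7548 and 4878 CPM. Ccl4 was at 12695 and 9612 CPM, Ccl9 at 2649 and 2357 CPM and Ccl6 at 6382 and 3331 CPM. The listed immediate early and heat shock genes summed to 31566 and 23178 CPM in this class, and their part in these levels was not tested.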

How the results depend on the processing

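No paired analysis was possible because each genotype had 1 library, with no replicate number to pair and none to leave out. Of 37 measured pairs of ligand and class, 8 passed the fold (a log2 ratio whose size is 1 or more). In the same classes between 0.224% (monocytes) and 1.35% (T cells) of all measured genes passed it. The number of pairs fell to 5 with the mean of per-cell CPM and to 5 without the highest cell of each class and library. It fell to 4 without the 5 highest cells (chosen after seeing the data). It was 3 in cells with Xist, 3 in cells thinned to 2000 UMIs and 4 with at least 300 UMIs required, and between 7 and 10 under the other alternatives that give a count. The class with the highest level was the same in both libraries for 8 or 9 ligands under every alternative run. Ccl9 in neutrophils turned to 0.0010 with per-cell log-normalized values and to 0.98 in cells with Xist. Ccl3 in T cells turned to -0.19 in cells with Xist and to -0.031 without the 5 highest cells, and Ccl4 in B cells to -0.062 in cells with Xist. Ccl12 in CCR2+ macrophages turned from -0.59 to 0.39 without regression of the cell cycle scores, and Ccl4 in neutrophils turned in cells with Xist (log2 ratio 3.41). The cause was not tested. Over 13 alternatives Ccl8 in CCR2- macrophages ranged from 0.14 to 1.60, Ccl8 in CCR2+ macrophages from -2.01 to -0.62, Ccl24 in CCR2+ macrophages from 0.86 to 1.65, Ccl2 in monocytes from -1.49 to -0.67, Ccl3 in neutrophils from -1.74 to -0.29 and Ccl12 over all kept cells from -1.22 to -1.01. Depth limits the classes with under 100 cells and every value that rests on a few cells.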

Other observations

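The mast cell and basophil class was divided by its own marker genes, a split chosen after the values were seen. Cells with Mcpt8, a basophil protease gene, and without Cma1, Mcpt4 or Tpsb2 numbered 20 in WT and 6 in Lyve1 KO. All 20 and all 6 had UMIs of Ccl3, Ccl4 and Ccl9, with Ccl3 at 8579 and 8744 CPM, Ccl4 at 15260 and 17347 CPM and Ccl9 at 3488 and 4098 CPM. Ccl6 was at 8283 and 5113 CPM in these cells, and no UMI of Ccl2 was found. Cells with Cma1, Mcpt4 or Tpsb2 and without Mcpt8, as mast cells are known to be, numbered 8 and 7. They had no UMI of Ccl3 or Ccl6, and they had Ccl2 at 1899 and 467 CPM and Ccl7 at 3015 and 12.3 CPM. In the class as a whole 1 WT cell held 88.0% of the 208 Ccl7 UMIs, and 1 Lyve1 KO cell held 73.7% of the 38 Ccl2 UMIs. The Lyve1 KO class as a whole had lower Ccl3 and Ccl4 and also a smaller share of cells with Mcpt8 alone, 6 of 15 against 20 of 30. The remaining 2 cells of each library had none of the 4 genes. They had 379 and 125 UMIs of Ccl3 and 419 and 235 UMIs of Ccl4, and in WT 1 cell held all UMIs of each. The part of these cells, and of the share of cells with Mcpt8 alone, in the differences of the class was not tested.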
